A study of Mus musculus with 3 samples.

Results

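The 10 genes described here belong to the distal side of the developing nephron. They are the transcription factor genes *Irx1*, *Irx2*, *Irx3*, *Pou3f3*, *Sim1*, *Sim2*, *Tfap2b* and *Sall3*, and *Slc12a1* and *Umod*, which encode a transporter and a secreted protein of the loop of Henle. They were taken by symbol from the 32285 genes of the count matrices, and all 10 were present. They were chosen by name and in part by values of these same libraries, namely lower *Sim1* and *Pou3f3* levels in Enl-T1 progenitor cells than in Enl-WT ones. All Enl-T1 against Enl-WT values below are therefore a description, and none is a test.

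Whole kidneys of mouse embryos at E15.5 (embryonic day) were profiled by droplet single-cell RNA sequencing in 3 libraries, 1 for each group. Enl-WT embryos had unmodified *Enl*, and Enl-T1 embryos carried 1 copy of the T1 allele, in which a short insertion alters the chromatin reader ENL (gene *Mllt1*). The mothers of the Enl-T1 TDI-11055 embryos were given TDI-11055, which blocks the acyl-binding pocket of ENL, at 100 mg/kg by mouth daily from E10.5 to E14.5, and the other embryos were untreated. In all groups Cre was made from a knock-in at *Wt1* that replaces 1 *Wt1* copy, is active in nephron and stroma, and leaves the ureteric epithelium outside its described range. Each library pooled kidneys from more than 1 embryo and no file ties cells to embryos, so no replicate existed, no p-value was computed, and the 95% intervals cover counting error only.

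Each nephron forms from a cap of self-renewing progenitors around the tip of the ureteric bud. Committed progenitors aggregate into a vesicle that becomes patterned along an axis, with podocytes and proximal tubule at the near end and the loop of Henle and distal tubule at the far end. IRX1, IRX2 and IRX3 are homeodomain proteins of the Iroquois family, known for marking the middle of that axis. POU3F3 (BRN1) is a POU-domain factor needed for growth of the loop and for its transporters, including the one encoded by *Slc12a1*. SIM1 and SIM2 are bHLH-PAS factors that bind DNA with ARNT or ARNT2, TFAP2B is an AP-2 factor of the distal tubule, and SALL3 is a zinc finger protein related to SALL1. SLC12A1 (NKCC2) carries sodium, potassium and chloride into cells of the thick ascending limb, and UMOD (uromodulin) is secreted by the same cells into urine.

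The genes lie at separate loci, apart from *Irx1* (chr13:71957921-71963723, minus strand) and *Irx2* (chr13:72628820-72634198, plus strand), which are 665 kb apart in 1 cluster (GRCm38, GENCODE M21). *Irx3* (chr8:91798525-91802067) is 556 kb from *Irx5* in the sister cluster. *Pou3f3* (chr1:42695768-42703176, plus strand) is 925 bases from the start of the noncoding *Pantr1* on the minus strand. *Sim1* (chr10:50894754-50989152), *Sim2* (chr16:94084931-94127032), *Tfap2b* (chr1:19208914-19238576), *Slc12a1* (chr2:125152505-125230002) and *Umod* (chr7:119462711-119479282) have no other member nearby.

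Promoters of 4 members are shown because the results turn on them. *Sim1* and *Pou3f3* are the genes named in the choice, and *Slc12a1* and *Umod* are the differentiated products at the end of the same route. RefSeq (GRCm38.p6) gave a promoter for 7 of the 10 members, from 250 bases before to 50 bases after the start used there. That start need not be the GENCODE one given above, and the *Sim1* window lies wholly inside the GENCODE span of the gene. Distances below are counted from the start of the window's own source. In each run below, read from 5′ to 3′ on the gene's strand, capitals mark matches on either strand to 6 motifs: the CCAAT box (CCAAT), the GC box (GGGCGG), the TATA box (TATAAA), an HNF1 core (GTTAAT), the octamer of POU factors (ATGCAAAT) and the SIM-ARNT core (TACGTG).
Pou3f3, chr1:42695518-42695817, plus strand: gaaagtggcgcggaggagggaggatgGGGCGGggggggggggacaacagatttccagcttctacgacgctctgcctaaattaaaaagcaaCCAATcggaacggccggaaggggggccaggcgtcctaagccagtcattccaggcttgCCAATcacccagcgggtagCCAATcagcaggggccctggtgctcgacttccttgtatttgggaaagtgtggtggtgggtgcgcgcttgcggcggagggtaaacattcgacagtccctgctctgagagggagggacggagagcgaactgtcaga
Sim1, chr10:50895401-50895700, plus strand: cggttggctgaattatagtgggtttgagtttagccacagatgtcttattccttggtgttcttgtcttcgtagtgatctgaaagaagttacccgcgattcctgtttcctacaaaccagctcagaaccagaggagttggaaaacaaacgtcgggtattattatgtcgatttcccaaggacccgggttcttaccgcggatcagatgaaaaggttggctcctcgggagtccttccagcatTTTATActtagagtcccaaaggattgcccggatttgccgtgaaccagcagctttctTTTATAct
Slc12a1, chr2:125152350-125152649, plus strand: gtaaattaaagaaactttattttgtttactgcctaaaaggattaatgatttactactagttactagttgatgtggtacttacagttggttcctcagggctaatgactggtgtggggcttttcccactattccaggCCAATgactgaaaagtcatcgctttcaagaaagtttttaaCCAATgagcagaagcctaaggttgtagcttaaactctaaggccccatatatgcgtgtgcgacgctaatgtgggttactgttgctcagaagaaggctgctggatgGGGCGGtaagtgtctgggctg
Umod, chr7:119479213-119479512, minus strand: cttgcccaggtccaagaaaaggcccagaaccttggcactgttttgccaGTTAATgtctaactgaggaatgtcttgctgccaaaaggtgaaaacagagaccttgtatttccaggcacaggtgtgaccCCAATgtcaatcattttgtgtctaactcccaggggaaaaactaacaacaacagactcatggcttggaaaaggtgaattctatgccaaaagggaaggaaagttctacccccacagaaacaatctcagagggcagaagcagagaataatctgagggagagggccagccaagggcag
The *Pou3f3* window was rich in CpG, with 18 CpG and 60.3% GC against medians of 7 CpG and 52.7% GC over 32851 promoters. It held CCAAT boxes 160, 103 and 84 bases before the start and a GC box 224 bases before it. The *Sim1* window had 13 CpG and a TATA box on the reverse strand 14 bases before and another 42 bases after the start. *Slc12a1* had 5 CpG and CCAAT boxes 115 and 75 bases before the start, and *Umod* had no CpG, a CCAAT box 124 bases before and an HNF1 core 202 bases before it. Of all promoters, 37.4% held a CCAAT box, 35.7% a GC box, 13.6% a TATA box and 7.10% an HNF1 core. The octamer and the SIM-ARNT core stood in 1.74% and 3.23% of promoters and in none of the 4 windows. A match is only a run of letters in this window and is no evidence of binding.

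Unique molecular identifiers (UMIs), each standing for 1 captured transcript, came to 37221435 in Enl-WT, 63336586 in Enl-T1 and 76619303 with TDI-11055. Barcodes were kept if they had 1000 to 6000 genes detected and no more than 10% mitochondrial UMIs, which left 5233, 4144 and 2754 cells with medians of 5090, 9391 and 16931 UMIs. Between 5 and 8 kept barcodes were shared by any pair of libraries. The libraries stood apart in ways that move with the groups. The median share of a cell's UMIs from ribosomal protein genes was 16.5% in Enl-WT, 26.8% in Enl-T1 and 27.9% with TDI-11055. Female cells, defined by *Xist* without any UMI from the Y chromosome, made up 26.5%, 73.3% and 35.1% of the kept cells. The part of depth and ribosomal share in the ratios below was not tested, and the values for female cells are given at the end.

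Clusters were built without the 10 genes, their relatives and other distal genes, and were named by marker lists with the suffix "-like". There were 2212 nephron cells in Enl-WT, 1297 in Enl-T1 and 1341 with TDI-11055. NP1-like cells (self-renewing progenitors) numbered 738, 626 and 621, committed-like cells (aggregate and vesicle) 519, 107 and 345, and distal/loop-like cells 263, 49 and 81. The distal/loop-like name was given by its own marker list, so the level of that list describes the class and does not test the name. Of the 20 markers on its list, 18, 16 and 18 reached 5 CPM (UMIs scaled to a fixed total of the class) in the 3 libraries, and together they came to 5047, 4107 and 4725 CPM. Markers of other types in these cells did not all stay level. The summed ureteric list was 1709, 896 and 1433 CPM, the stroma list 160.8, 66.6 and 20.2 CPM, the NP1-like list 141.5, 105 and 95.8 CPM, the podocyte list 516, 399.8 and 414 CPM and the committed-like list 872, 1090 and 1093 CPM, while the proximal tubule list stayed between 45.4 and 66.6 CPM and the endothelial list between 38.7 and 43.9 CPM. The part of these markers in the differences below was not tested. Loop and distal tubule cells were not separated within the class, so fewer cells of 1 kind and less RNA per cell cannot be told apart there.

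In Enl-WT kidneys the members marked the distal route with different breadth. For each class the UMIs of a gene were summed over the cells before scaling. *Irx1* was at 164.6 CPM (95% Poisson interval 145 to 186) in distal/loop-like cells, 80.6 CPM (71.6 to 90.4) in committed-like cells and 65.5 CPM (54.1 to 78.5) in proximal tubule-like cells, and at most 5.48 CPM elsewhere. The intervals of the last 2 classes overlapped. *Irx2* followed the same order, with 131.9, 56.0 and 33.0 CPM, and here the intervals were separate. *Tfap2b* was at 632 CPM in distal/loop-like, 214 CPM in committed-like and 138 CPM in ureteric epithelium-like cells, and at 2.80 CPM in proximal tubule-like cells. Thus the Iroquois pair was high and *Tfap2b* near background in the proximal tubule-like class, and the reverse held in the ureteric epithelium.

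*Pou3f3* was above 100 CPM in 4 classes. It was at 327 CPM (298.9 to 356) in distal/loop-like cells, 168 CPM (155 to 182) in committed-like cells, 143 CPM (136 to 150) in ureteric epithelium-like cells and 126 CPM (110 to 144) in proximal tubule-like cells, the last 2 with overlapping intervals. *Sim1* differed in that its highest level lay in the committed-like class. It was at 174 CPM (161 to 188) in committed-like cells, 131 CPM (113 to 150) in distal/loop-like cells, and 67.8 CPM (63.0 to 72.7) and 58.2 CPM (47.5 to 70.5) in ureteric epithelium-like and proximal tubule-like cells, where the intervals overlapped. *Sim2* and *Sall3* were restricted to 2 classes. *Sim2* was at 51.1 CPM in committed-like and 48.7 CPM in distal/loop-like cells, with overlapping intervals, and *Sall3* at 74.0 and 94.8 CPM, while every other class was under 5 CPM for both.

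*Irx3* had another pattern from its relatives. In Enl-WT it was highest in endothelial-like cells at 82.2 CPM (72.1 to 93.2), then in proximal tubule-like cells at 50.4 CPM (40.5 to 61.9) and committed-like cells at 41.9 CPM (35.5 to 49.2), whose intervals overlapped. Distal/loop-like cells had 24.3 CPM (17.2 to 33.4) and podocyte-like cells 23.3 CPM (16.6 to 31.9), also overlapping. The products of the mature loop were the most confined. *Slc12a1* stood at 1062 CPM (1011 to 1114) in distal/loop-like cells and 28.7 CPM (23.5 to 34.8) in committed-like cells. *Umod* reached 33.9 CPM (25.4 to 44.4) in distal/loop-like cells from 53 UMIs, and was at most 3.04 CPM in every other class.

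Background from free RNA sets a floor to these values. Endothelial-like cells, which should lack the nephron genes, held 8.90 CPM of *Slc12a1*, 11.6 CPM of *Tfap2b*, 8.22 CPM of *Pou3f3*, 5.48 CPM of *Irx1* and 4.11 CPM of *Sim1* in Enl-WT. The same cells held 0, 1.26, 1.26, 0 and 1.57 CPM in Enl-T1. The background thus moved with the group, and levels near it are not read as expression.

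**Figure D1:**
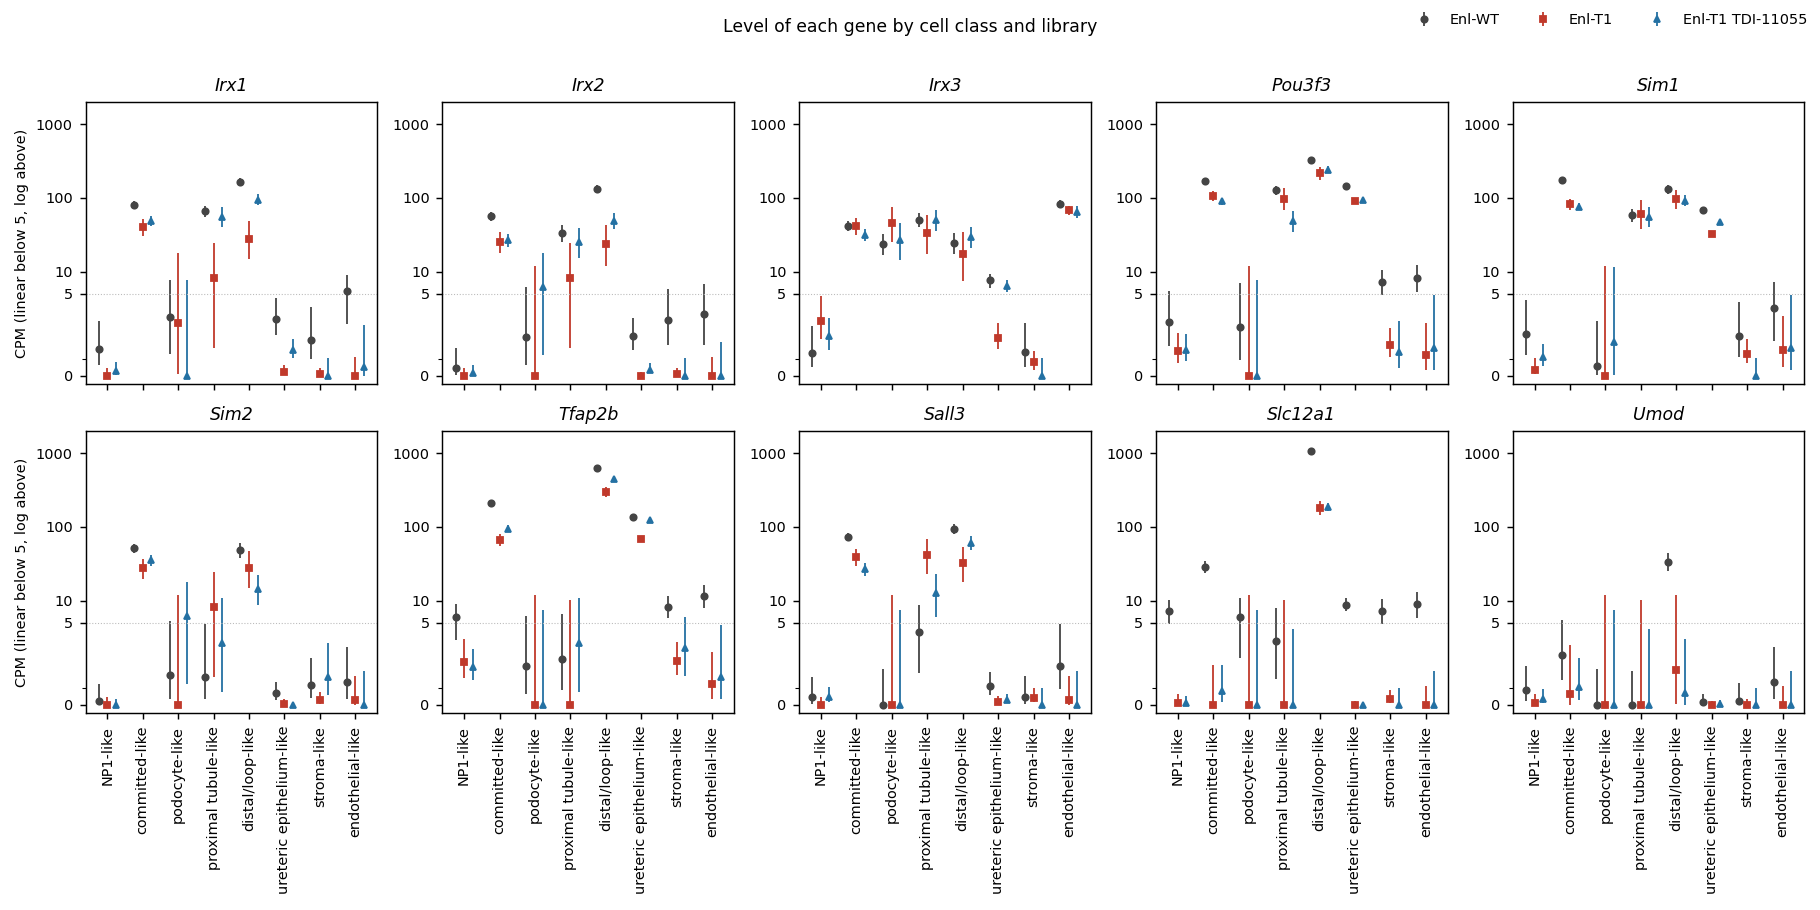
Level in CPM (vertical axis, linear below 5 and logarithmic above) of each of the 10 genes in 8 cell classes (horizontal axis), with 1 symbol for each of the 3 libraries. Points are single libraries, bars are exact 95% Poisson intervals, and the dotted line is 5 CPM. *Slc12a1* peaks at 1062 CPM in Enl-WT distal/loop-like cells, and *Irx3* is the gene with its highest Enl-WT level in endothelial-like cells.

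The genes whose levels across the 8 Enl-WT classes were most like those of each member were found by the Pearson correlation of log2(CPM + 10), as a description over classes that share 1 library and its depth. *Irx1* and *Irx2* were nearest to each other (r = 0.990), and so were *Sim2* and *Sall3* (r = 0.991) and *Slc12a1* and *Umod* (r = 0.996). The nearest gene to *Irx3* was its locus neighbour *Irx5* (r = 0.946), and the nearest to *Pou3f3* was its neighbour *Pantr1* (r = 0.994). *Emx2os*, a noncoding RNA that overlaps *Emx2* on the opposite strand, was nearest to *Sim1* (r = 0.985), and *Nrcam*, a cell adhesion gene, to *Tfap2b* (r = 0.966).

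*Pou3f3* and *Pantr1* did not keep a constant ratio across libraries. In distal/loop-like cells *Pantr1* was at 99.3 CPM (84.3 to 116) in Enl-WT, 96.7 CPM (70.5 to 129) in Enl-T1 and 95.8 CPM (80.2 to 114) in Enl-T1 TDI-11055. In the same cells *Pou3f3* was at 327, 215 and 239 CPM. In committed-like cells *Pantr1* was at 50.2, 61.7 and 62.2 CPM with overlapping intervals, against 168, 107 and 90.5 CPM of *Pou3f3*. The noncoding neighbour was therefore level between libraries within its intervals while *Pou3f3* was lower in both Enl-T1 libraries.

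In self-renewing progenitors the members were low, and 9 of the 10 were near background. *Sim1* in NP1-like cells was at 2.57 CPM (1.28 to 4.59) in Enl-WT, 0.374 CPM (0.0771 to 1.09) in Enl-T1 and 1.12 CPM (0.577 to 1.95) in Enl-T1 TDI-11055, from 11, 3 and 12 UMIs. *Pou3f3* was at 3.27, 1.50 and 1.58 CPM from 14, 12 and 17 UMIs. These Enl-WT levels lay below those of endothelial-like cells, which were 4.11 and 8.22 CPM. Depth differs between libraries, so cells were also thinned to 2000 UMIs each. *Sim1* was then found in 0.683% of Enl-WT NP1-like cells (5 of 732) and 0.160% of Enl-T1 ones (1 of 624), against 0.775% of Enl-WT endothelial-like cells (3 of 387). These 3 shares were 1.08%, 0.479% and 2.52% in unthinned cells, whose median depths were 5249, 12163 and 5665 UMIs. The lower *Sim1* level in Enl-T1 NP1-like cells (ratio 0.146, 0.0260 to 0.551) and the *Pou3f3* ratio of 0.457 (0.193 to 1.07) are thus ratios between values near background. *Tfap2b* (6.07 CPM) and *Slc12a1* (7.24 CPM) in Enl-WT were also below their endothelial-like levels, and *Irx1*, *Irx2*, *Sim2*, *Sall3* and *Umod* were at most 1.63 CPM.

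*Irx3* ran the other way in NP1-like cells, at 1.40 CPM (0.514 to 3.05) in Enl-WT from 6 UMIs, 3.36 CPM (2.22 to 4.89) in Enl-T1 from 27 UMIs and 2.42 CPM (1.58 to 3.54) with TDI-11055 from 26 UMIs. Endothelial-like cells had the highest *Irx3* level and give no background for it, and stroma-like cells had 1.47, 0.811 and 0 CPM. Its interval lay above that of stroma-like cells (0.371 to 1.54) in Enl-T1, and the Enl-T1 to Enl-WT ratio of 2.40 (0.971 to 7.11) included 1.

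In committed-like cells both genes were well above background. *Sim1* was at 174 CPM in Enl-WT (630 UMIs), 81.5 CPM (67.7 to 97.1) in Enl-T1 (124 UMIs) and 76.2 CPM (67.4 to 85.8) in Enl-T1 TDI-11055 (272 UMIs). Both Enl-T1 libraries were below Enl-WT and their intervals overlapped each other, with an Enl-T1 to Enl-WT ratio of 0.468 (0.383 to 0.569). *Pou3f3* was at 168, 107 and 90.5 CPM, a ratio of 0.636 (0.532 to 0.757). After thinning, *Sim1* was found in 29.4% (25.5 to 33.5) of 517 cells in Enl-WT, 11.2% (5.93 to 18.8) of 107 in Enl-T1 and 8.45% (5.74 to 11.9) of 343 with TDI-11055. Unthinned shares were 51.4%, 39.3% and 24.3%. The median depth of the class was 6409, 13658 and 6502 UMIs, so the Enl-T1 TDI-11055 committed-like cells were shallow for their library. Of 10047 genes with at least 5 CPM on average, 27.6% were at least 2-fold below Enl-WT in them, against 9.44% in untreated Enl-T1. A level below Enl-WT was thus common with TDI-11055 in this class, and its part in the values of the members was not tested.

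The committed-like class held 2 clusters, which differed in their member levels. The cluster led by *Sim1*, *Cxcl14* and *4930523C07Rik* had 317, 59 and 149 cells in the 3 libraries. In it *Sim1* was at 277, 146 and 140 CPM, *Pou3f3* at 255, 185 and 160 CPM, *Tfap2b* at 373, 121 and 184 CPM and *Irx1* at 137, 71.1 and 91.8 CPM. The other cluster, led by *Lhx1*, *Osr2* and *Npy* and made of 202, 48 and 196 cells, had 37.3, 1.47 and 11.9 CPM of *Sim1*, 54.0, 10.3 and 20.3 CPM of *Pou3f3* and 45.0, 38.3 and 36.7 CPM of *Irx3*, with at most 5.14 CPM of *Irx1* and 2.82 CPM of *Tfap2b*. In Enl-WT *Sim1* and *Pou3f3* were thus above the endothelial-like level in both clusters. The name of the *Sim1*-led cluster is uncertain, because its 10 leading genes held 1 listed marker of the committed-like class (*Cxcl14*) and 1 of the distal/loop-like class (*Mecom*), and the tie went to the class whose markers had the higher mean fold. The ratios kept their side of 1 inside the *Sim1*-led cluster, at 0.527 (0.430 to 0.641) for *Sim1* and 0.726 (0.604 to 0.870) for *Pou3f3*.

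The other factors of committed-like cells were lower in Enl-T1, apart from *Irx3*. *Tfap2b* was at 214 CPM in Enl-WT, 67.0 CPM in Enl-T1 and 94.1 CPM in Enl-T1 TDI-11055, an Enl-T1 to Enl-WT ratio of 0.313 (0.252 to 0.386). *Irx1* was at 80.6, 40.1 and 48.5 CPM (ratio 0.497, 0.371 to 0.657), and *Irx2* at 56.0, 25.0 and 26.6 CPM (ratio 0.446, 0.306 to 0.632). *Sall3* was at 74.0, 38.8 and 26.6 CPM and *Sim2* at 51.1, 27.6 and 35.3 CPM, with ratios of 0.524 (0.388 to 0.697) and 0.540 (0.377 to 0.759). For all of these the Enl-WT interval lay above both others, which for Enl-T1 TDI-11055 stands beside the 27.6% of all genes given above. In female cells alone the direction of *Sim2* turned, at 30.3 CPM (20.6 to 43.0) in Enl-WT, 34.2 CPM (24.7 to 46.3) in Enl-T1 and 60.9 CPM (47.0 to 77.6) with TDI-11055. *Irx3* was at 41.9, 41.4 and 31.4 CPM, a ratio of 0.987 (0.723 to 1.33), and its direction turned upward with median-of-ratios scaling. *Slc12a1* had 104 UMIs in Enl-WT and none in Enl-T1, so it was at least 14.6-fold lower there when the 3 counts that a count of 0 allows are put in its place. Its Enl-WT level of 28.7 CPM was above the endothelial background of 8.90 CPM, and thinned cells with a UMI were 3.09% of committed-like and 1.29% of endothelial-like cells.

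Of the 9 members with at least 5 CPM on average in committed-like cells, 5 were at least 2-fold lower in Enl-T1, beside 9.44% of the 10047 genes measured. The count was 2, *Tfap2b* and *Slc12a1*, in female cells alone (beside 10.7% of genes) and with median-of-ratios scaling (beside 4.48%). Their median log2 ratio was -1.01 and that of all genes -0.28. *Slc12a1* passed the level filter only through Enl-WT and had to differ, and the choice of members used this contrast, so nothing is read from the count. With 1 CPM added and no filter, the median of all 10 was -1.04.

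Among distal/loop-like cells the Iroquois pair and the loop products differed most. *Irx1* was at 164.6 CPM in Enl-WT (257 UMIs), 27.9 CPM (14.9 to 47.8) in Enl-T1 (13 UMIs) and 94.3 CPM (78.9 to 112) in Enl-T1 TDI-11055 (131 UMIs). The 3 intervals did not overlap, and the Enl-T1 to Enl-WT ratio was 0.170 (0.0892 to 0.295). *Irx2*, its neighbour on chromosome 13, was at 131.9 CPM, 23.6 CPM (11.8 to 42.3) and 48.3 CPM (37.4 to 61.3), a ratio of 0.179 (0.0881 to 0.327). The order of the libraries was the same for both genes, and for *Irx2* the Enl-T1 and Enl-T1 TDI-11055 intervals overlapped.

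*Slc12a1*, the transporter, was at 1062 CPM in Enl-WT, 183 CPM (146 to 226) in Enl-T1 and 186 CPM (164 to 210) in Enl-T1 TDI-11055, from 1658, 85 and 258 UMIs. Both Enl-T1 libraries were low and overlapped (Enl-T1 to Enl-WT ratio 0.172, 0.137 to 0.214). *Umod*, the secreted protein, had 53, 1 and 1 UMIs, which gave 33.9, 2.15 and 0.720 CPM. At 1 UMI the ratio of 0.0633 spanned 0.00157 to 0.368.

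The other factors were less far apart. *Tfap2b* was at 632 CPM (593 to 673), 298.7 CPM (251.1 to 353) and 447 CPM (412 to 483) in the 3 libraries, with no overlap and a ratio of 0.473 (0.393 to 0.565). *Pou3f3* was at 327, 215 and 239 CPM (ratio 0.658, 0.526 to 0.817), and *Sall3* at 94.8, 32.2 and 61.2 CPM (ratio 0.3401, 0.186 to 0.579). *Sim1* was at 131, 96.7 and 91.5 CPM, and its ratio of 0.740 (0.524 to 1.03) included 1 and turned above 1 when the trend with gene length was removed or the cells were thinned. *Sim2* was at 48.7, 27.9 and 14.4 CPM (ratio 0.574, 0.292 to 1.04). *Irx3* was at 24.3, 17.2 and 29.5 CPM (ratio 0.706, 0.285 to 1.54), with the direction reversed in thinned cells. *Irx1*, *Irx2* and *Slc12a1* were thus further from Enl-WT than *Pou3f3* and *Sim1*, and their ratio intervals did not overlap that of *Pou3f3*. The wide *Irx3* interval overlapped those of *Irx1* and *Irx2*, so these genes are not ranked against *Irx3*.

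All 10 members had at least 5 CPM on average in distal/loop-like cells, and 6 were at least 2-fold lower in Enl-T1, beside 16.6% of 10513 genes. The median log2 ratio was -1.32, against -0.25 over all genes, and -1.30 with 1 CPM added. *Umod* was above 5 CPM in Enl-WT alone, so it had to differ. With median-of-ratios scaling, which centres the bulk of the genes, the medians were -1.13 in distal/loop-like and -0.76 in committed-like cells.

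**Figure D2:**
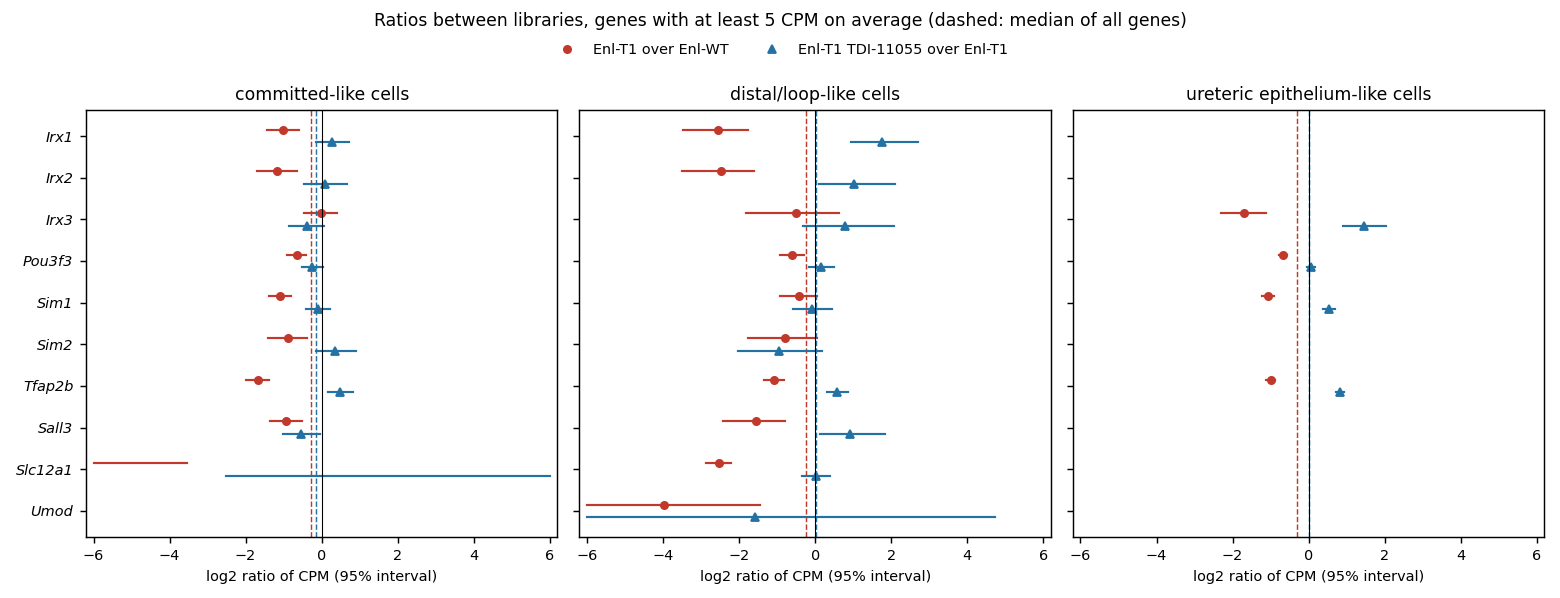
Log2 ratio of CPM (horizontal axis) of each gene with at least 5 CPM on average, in committed-like, distal/loop-like and ureteric epithelium-like cells, for Enl-T1 over Enl-WT (circles) and Enl-T1 TDI-11055 over Enl-T1 (triangles). Bars are exact 95% intervals that stop at the edge of the axis where they run on, a bar without a point is a ratio with 0 UMIs on 1 side, and dashed lines are medians over all genes. In distal/loop-like cells *Irx1*, *Irx2* and *Slc12a1* lie farther left than *Pou3f3* and *Sim1*, and with TDI-11055 *Irx1* lies to the right of 0 while *Slc12a1* lies at 0.

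The share of cells with a transcript was compared at equal depth. With cells thinned to 2000 UMIs, *Irx1* was found in 54 of 256 Enl-WT distal/loop-like cells (21.1%, exact binomial interval 16.3 to 26.6), 3 of 47 Enl-T1 cells (6.38%, 1.34 to 17.5) and 10 of 77 Enl-T1 TDI-11055 cells (13.0%, 6.41 to 22.6). *Slc12a1* was found in 32.0% (26.4 to 38.1), 12.8% (4.83 to 25.7) and 16.9% (9.31 to 27.1). For *Slc12a1* the intervals of Enl-WT and Enl-T1 were separate, and for *Irx1* they overlapped at this depth. *Tfap2b* was found in 59.0%, 38.3% and 57.1% of cells and *Sim1* in 19.5%, 23.4% and 14.3%, with overlapping intervals. Unthinned, the shares were 35.4%, 12.2% and 23.5% for *Irx1*, 35.7%, 18.4% and 33.3% for *Slc12a1*, 78.3%, 69.4% and 87.7% for *Tfap2b* and 42.6%, 51.0% and 58.0% for *Sim1*. The distal/loop-like cells had medians of 4469, 9255 and 17760 UMIs. The endothelial-like share at the same thinned depth was at most 1.29% for these 4 genes in Enl-WT and at most 1.72% in the other libraries.

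**Figure D3:**
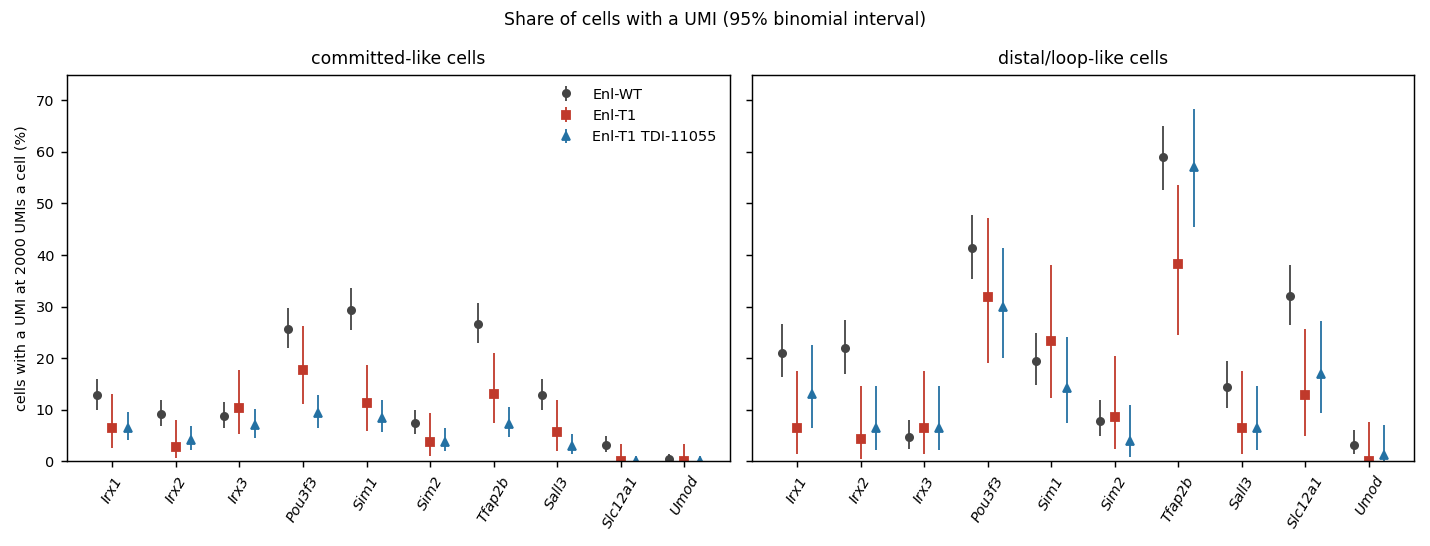
Share of cells with at least 1 UMI of each gene after thinning every cell to 2000 UMIs (vertical axis, percent), in committed-like and distal/loop-like cells of the 3 libraries. Points are single libraries and bars are exact 95% binomial intervals. In committed-like cells Enl-WT is highest for *Sim1* (29.4%), *Tfap2b* and *Pou3f3*, and in distal/loop-like cells *Tfap2b* is found in 59.0% of cells in Enl-WT, 38.3% in Enl-T1 and 57.1% with TDI-11055.

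Transcripts of the members were found together in single Enl-WT distal/loop-like cells. Of the 54 thinned cells with *Irx1* and the 56 with *Irx2*, 33 had both. *Slc12a1* was present in 39 of the 54 *Irx1* cells, and these were 39 of 82 *Slc12a1* cells. Of the 50 cells with *Sim1*, 8 had *Irx1*, beside 54 of all 256 cells. Unthinned, 34 of 111 *Sim1* cells had *Irx1*, beside 91 of 256, so no separation of the 2 genes is read from this. Of the 8 cells with *Umod*, 6 had *Slc12a1*. In Enl-T1 the counts were too low to compare, with 3 cells with *Irx1*, 2 with *Irx2* and 6 with *Slc12a1* among 47. These are counts at a sampling depth at which most transcripts of a cell are missed.

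Over the nephron as a whole the differences were larger than within the classes, and the classes themselves differed in size. *Irx1* over all nephron cells was at 49.6 CPM in Enl-WT, 5.53 CPM in Enl-T1 and 18.5 CPM in Enl-T1 TDI-11055, *Sim1* at 69.6, 13.6 and 24.1 CPM, and *Slc12a1* at 131.6, 6.02 and 13.8 CPM. In Enl-T1 all 9 members measured were at least 2-fold below Enl-WT, beside 16.8% of 10422 genes, with a median log2 ratio of -2.36 against -0.41. Distal/loop-like cells were 11.9%, 3.78% and 6.04% of the nephron cells of the 3 libraries, and committed-like cells 23.5%, 8.25% and 25.7%.

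The nephron ratios were split by exchanging either the cluster shares (weighted by UMIs) or the levels within the 12 nephron clusters between libraries. For *Irx3*, exchanging the shares alone gave a ratio of 0.463 and exchanging the levels alone 0.995, beside an observed 0.368. For *Pou3f3* the values were 0.370 and 0.664 beside 0.220, and for *Sim1* 0.415 and 0.590 beside 0.195. For these genes the shares gave the lower value. *Irx1* had nearly equal values, 0.353 and 0.313 beside 0.111, as did *Tfap2b*, 0.392 and 0.401 beside 0.141. For *Slc12a1* the levels gave the lower value, 0.158 against 0.322 for the shares, beside 0.0457 observed. The split is arithmetic on single libraries and has no interval.

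**Figure D4:**
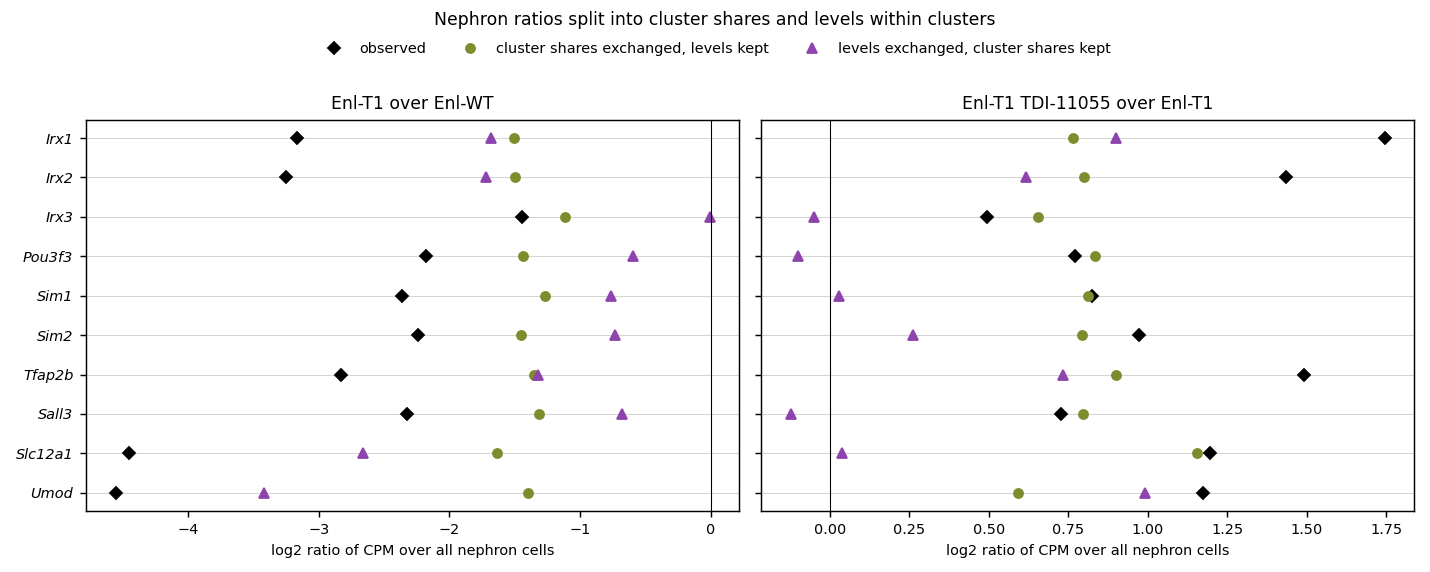
Log2 ratio of CPM over all nephron cells (horizontal axis) for each gene, as observed (diamonds), with cluster shares exchanged and levels kept (circles), and with levels exchanged and shares kept (triangles), with Enl-T1 over Enl-WT on the left and TDI-11055 over untreated Enl-T1 on the right. Each point is 1 ratio of 2 libraries, without an interval. For *Irx3* the levels-only triangle of the left panel sits at 0, and the *Slc12a1* one lies left of the shares-only circle.

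Some members were also lower outside the nephron. Ureteric epithelium-like cells numbered 1744, 1175 and 1022 in the 3 libraries. *Pou3f3* in them was at 143 CPM, 89.4 CPM (84.8 to 94.3) and 94.0 CPM (89.7 to 98.4), an Enl-T1 to Enl-WT ratio of 0.627 (0.583 to 0.674). *Sim1* was at 67.8, 32.3 and 47.1 CPM (ratio 0.476, 0.424 to 0.534) and *Tfap2b* at 138, 68.9 and 122.98 CPM (ratio 0.5003, 0.462 to 0.541). For all 3 genes Enl-WT was highest and Enl-T1 lowest. *Irx3* was at 7.59, 2.32 and 6.37 CPM. Of these 4 members measured in the class, 2 were at least 2-fold lower in Enl-T1, beside 6.29% of 10453 genes, with a median log2 ratio of -1.03 against -0.30. The 2 were *Sim1*, a gene named in the choice, and *Irx3*. *Irx3* passed the level filter only through Enl-WT and Enl-T1 TDI-11055 and had to be lower in Enl-T1, so nothing is read from the count.

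The clusters of the ureteric class took different shares of it in the 3 libraries, and the part of this in the class ratios was not tested. The cluster led by *Rprm*, *Ret* and *Calb1* had 482, 176 and 215 cells, that led by *Fxyd4*, *Sprr2f* and *Spink8* 473, 498 and 241 cells, and the urothelial cluster led by *Upk1b*, *Upk3a* and *S100a6* 56, 118 and 15 cells. *Sim1* was at 83.2, 53.3 and 50.6 CPM in the *Rprm*-led cluster and at 47.2, 19.2 and 24.8 CPM in the *Fxyd4*-led one. *Tfap2b* was at 149.9, 106.5 and 134.5 CPM in the first and at 117.7, 55.4 and 97.1 CPM in the second. Enl-WT was above Enl-T1 inside both clusters, and the level with TDI-11055 was close to Enl-T1 for *Sim1* and between the other libraries for *Tfap2b*. In the urothelial cluster *Tfap2b* was at 84.7 CPM in Enl-WT and 9.16 CPM in Enl-T1.

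*Irx3* in endothelial-like cells was at 82.2 CPM (72.1 to 93.2) in Enl-WT, 67.6 CPM (58.9 to 77.3) in Enl-T1 and 63.7 CPM (52.6 to 76.6) in Enl-T1 TDI-11055. The intervals overlapped, and after thinning 60 of 387, 36 of 256 and 15 of 116 cells had a UMI (in unthinned cells the shares were 34.0%, 39.1% and 35.3%). In proximal tubule-like cells, which numbered 279, 30 and 72, *Irx1* was at 65.5, 8.31 and 55.2 CPM and *Irx2* at 33.0, 8.31 and 25.1 CPM, with 3 UMIs each in Enl-T1. *Sim1* was level there at 58.2, 60.9 and 55.2 CPM. *Sall3* ran the other way, with 4.48 CPM from 8 UMIs in Enl-WT and 41.5 CPM (23.2 to 68.5) from 15 UMIs in Enl-T1.

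The comparison of Enl-T1 TDI-11055 with Enl-T1 uses the same Enl-T1 library as the one with Enl-WT, so a low value in that library lowers the earlier ratio and raises this one. In distal/loop-like cells *Irx1* was higher with TDI-11055 by a ratio of 3.38 (1.91 to 6.51), *Irx2* by 2.04 (1.07 to 4.28), *Sall3* by 1.90 (1.09 to 3.54) and *Tfap2b* by 1.49 (1.24 to 1.81). These 4 intervals lay above 1. *Slc12a1* had a ratio of 1.02 (0.793 to 1.32), *Sim1* of 0.946 (0.668 to 1.36) and *Pou3f3* of 1.11 (0.887 to 1.41), which leaves room for small differences either way. *Sim2* ran the other way at 14.4 against 27.9 CPM, a ratio of 0.516 (0.244 to 1.13), and *Irx3* had a ratio of 1.72 (0.795 to 4.24), both intervals including 1. *Umod* was at 1 UMI in both libraries, and no fold is given. Of the 10 members, 2 were at least 2-fold higher with TDI-11055, beside 8.64% of 10512 genes, and none but *Irx1* was past 2-fold once the barcodes of highest doublet score were left out. The median log2 ratio was 0.37 against 0.02. *Slc12a1* in Enl-T1 TDI-11055 was still at 0.175 of its Enl-WT level (0.153 to 0.200), while *Irx1* was at 0.573 and *Tfap2b* at 0.706. These ratios to Enl-WT differed by sex. *Irx1* was at 0.908 (0.665 to 1.24) in female and 0.282 (0.182 to 0.425) in male cells. *Tfap2b* was at 0.832 in female and 0.553 in male cells, and *Slc12a1* at 0.298 and 0.0753.

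In committed-like cells fewer members differed with TDI-11055 over all cells of the class. *Tfap2b* had a ratio of 1.41 (1.12 to 1.77) and *Sall3* of 0.687 (0.491 to 0.967), and the ratios of *Irx1*, *Irx2*, *Irx3*, *Pou3f3*, *Sim1* and *Sim2* ran from 0.758 to 1.28. Of the 9 measured, only *Slc12a1*, with 3 UMIs against none, was at least 2-fold higher, beside 1.8% of 10047 genes. In female cells alone 3 intervals lay above 1, those of *Irx1* at 1.53 (1.08 to 2.16), *Sim2* at 1.78 (1.19 to 2.69) and *Tfap2b* at 1.50 (1.14 to 1.97). *Sall3* was then at 0.976 (0.641 to 1.48), and the intervals of *Irx2*, *Irx3*, *Pou3f3* and *Sim1* also included 1. In ureteric epithelium-like cells *Tfap2b* had a ratio of 1.78 (1.66 to 1.92), *Sim1* of 1.46 (1.31 to 1.63), *Irx3* of 2.74 (1.88 to 4.10) and *Pou3f3* of 1.05 (0.979 to 1.13). Among these 4, *Irx3* alone was past 2-fold, beside 1.65% of 10453 genes. It passed the level filter only through libraries other than Enl-T1, so nothing is read from this count. Inside the *Rprm*-led ureteric cluster *Sim1* was not higher with TDI-11055 than in Enl-T1, and inside the *Fxyd4*-led one it was. These clusters took different shares of the class, and the part of this in the class ratio of *Sim1* was not tested. Across all nephron cells 4 of 9 members were at least 2-fold higher, beside 2.08% of 10422 genes, with a median of 0.97. For *Sim1* the shares alone gave 1.76 and the levels alone 1.02, beside an observed 1.77, and for *Irx1* they gave 1.70 and 1.87 beside 3.35.

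Other genes of the distal nephron, from a list of 34, gave context. In distal/loop-like cells 14 of the 31 measured were at least 2-fold lower in Enl-T1 and 1 was higher, beside 16.6% lower and 6.34% higher among all genes, with a median log2 ratio of -0.89. The largest differences were those of *Kcnj1* (ROMK, the potassium channel of the thick ascending limb), with 64 UMIs in Enl-WT and 1 in Enl-T1, and *Fxyd2* (a subunit of the sodium pump), at 464 and 49.4 CPM. *Bsnd*, which encodes a chloride channel subunit, was at 31.4 and 4.30 CPM. *Emx2* (a homeobox factor) was the 1 gene past 2-fold in the other direction, at 110.8 and 270.8 CPM. With TDI-11055, 10 of the 31 were at least 2-fold higher than in Enl-T1 and none lower, beside 8.64% and 6.26%, led by *Calb1* (ratio 2.84), *Fxyd2* (2.49), *Cldn4* (2.42) and *Gata3* (2.31).

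Most relatives named in distal/loop-like cells ran against the members. *Sall1*, related to *Sall3*, was at 99.9 CPM in Enl-WT and 150.5 CPM in Enl-T1 (ratio 1.51, 1.12 to 2.01), and *Sall2* at 14.7 and 36.5 CPM (ratio 2.48, 1.24 to 4.85). *Tfap2a*, related to *Tfap2b*, was at 25.0 and 45.1 CPM (ratio 1.81, 1.01 to 3.15). *Slc12a2*, related to *Slc12a1*, had the members' direction at 49.96 and 32.2 CPM (ratio 0.645, 0.345 to 1.13). *Irx5* in committed-like cells was level, like *Irx3*, at 10.2, 10.51 and 11.8 CPM in the 3 libraries. *Arnt2*, a partner of SIM proteins, was at 41.7 CPM in Enl-WT, 15.8 CPM in Enl-T1 and 13.4 CPM in Enl-T1 TDI-11055 committed-like cells (Enl-T1 to Enl-WT ratio 0.378, 0.235 to 0.585). *Arnt*, the separate gene of the other such partner, was at 23.5, 18.4 and 7.84 CPM.

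The libraries differed in the sex of their cells, so the classes and levels were set out by sex. Among Enl-T1 nephron cells 916 were female and 204 male. Distal/loop-like cells were 47 of the female cells (5.13%, 3.79 to 6.77) and 0 of the male cells, which allows a share of up to 1.47% by 3 counts. In Enl-WT they were 13.4% of 590 female and 12.6% of 1042 male cells, and with TDI-11055 10.3% of 368 and 7.09% of 437. Committed-like cells were 26.1% of female and 22.2% of male cells in Enl-WT, 8.62% and 7.35% in Enl-T1, and 16.0% and 18.3% with TDI-11055. Of the 345 committed-like cells with TDI-11055, 206 had no sex call, and they were 38.4% of such nephron cells, so the 25.7% over all cells rests largely on them. The number of embryos of each sex is not known, so sex and embryo cannot be told apart.

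Of the 49 Enl-T1 distal/loop-like cells 47 were female and 2 could not be assigned. In female cells alone *Irx1* was at 159.9 CPM (125 to 201) in Enl-WT, 29.1 CPM (15.49 to 49.7) in Enl-T1 and 145 CPM (118 to 176) in Enl-T1 TDI-11055. *Slc12a1* was at 883, 190.2 and 263 CPM, and *Pou3f3* at 357, 222 and 242 CPM. The order seen over all cells held for *Irx1* and *Pou3f3*, but the *Irx1* intervals of Enl-WT and Enl-T1 TDI-11055 overlapped in female cells. The TDI-11055 to Enl-T1 ratio of *Irx1* was 4.99 (2.79 to 9.70). *Slc12a1* was higher with TDI-11055 in female cells, by a ratio of 1.38 (1.06 to 1.81), where the ratio over all cells was 1.02. *Sim2* was at 8.63 against 29.1 CPM, a ratio of 0.297 (0.0924 to 0.836). Male cells with TDI-11055 had 48.7 CPM (32.4 to 70.4) of *Irx1* and 95.7 CPM (72.1 to 125) of *Slc12a1*, both below the female values of that library.

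**Figure D5:**
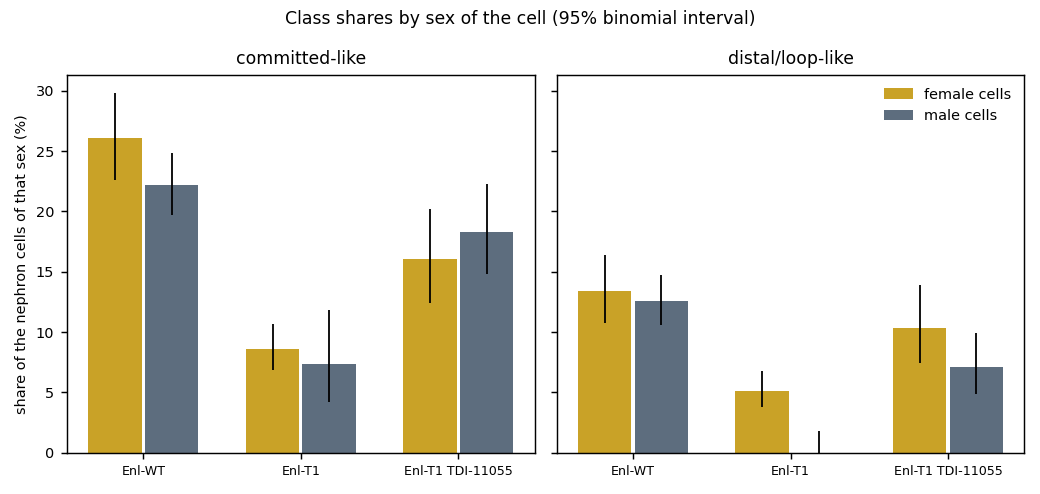
Share of the nephron cells of each sex (vertical axis, percent) that were committed-like or distal/loop-like in the 3 libraries, as bars for female and male cells with exact 95% binomial intervals. The male Enl-T1 bar for distal/loop-like cells is 0 of 204 cells, while the female bar is 5.13% of 916 cells.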

How the data were processed

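Droplet single-cell RNA sequencing (10x Genomics 3′ kit, version 3.1) of whole kidneys gave 3 matrices. The deposited values are raw UMI counts per gene and barcode, which the authors made with Cell Ranger 6.1.2 on mouse build mm10, per the labels, with 1 library for each group named there. No column was left out. Barcodes with 1000 to 6000 genes and at most 10% mitochondrial UMIs were kept, the study's own limits, and doublets were left in.

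Libraries were integrated on 2000 variable genes in Seurat 5.3.0 (SeuratObject 5.2.0, R 4.3.3) and clustered on 30 components at resolution 0.5, and the nephron again on 20 components at 0.8. The members, their relatives, distal genes, *Hox*, electron transport and technical genes were left out of the clustering. A type could name a cluster if at least 3 of its listed markers were detected in 10% of the cells and their mean log2 fold was above 0 or 2 of them were among the 10 genes of highest fold (10 CPM added). The type with most markers among those 10 was taken, ties going to the higher mean fold. That scoring was set after clusters had been seen, and other names could move values. Of the 4 NP1-like clusters, 3 were led by cell cycle genes and had 0 listed markers among their 10, so their name rests on the mean fold.

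The members and all gene lists were chosen with earlier results of these data known. UMIs were summed per class and library and scaled to CPM, with exact Poisson intervals, and ratios have exact intervals from the split of the counts. Genes with at least 5 CPM on average were counted, a 2-fold ratio being past the limit. Shares used cells thinned to 2000 UMIs, shallower cells left out, with Clopper-Pearson intervals. No test between groups was possible with 1 library each. From each list up to 4 genes of largest ratio with at least 20 CPM in a library were named, beside the members. *Emx2*, *Pantr1*, *Irx5* and *Arnt*, and the values in clusters, were picked with their values in view. Ratio intervals were tested on simulated counts. Alternatives covered scaling, gene length, the mitochondrial limit, doublets, clustering genes, resolution, sex, depth and the level filter. Python 3.11.15, numpy 2.4.6, scipy 1.17.1, pandas 2.3.3, scanpy 1.11.5 and matplotlib 3.10.9 were used.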

Additional observations from a re-analysis of the deposited data

How the results depend on the processing

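Each of 6 summary values was recomputed under up to 11 alternatives, and 51 of 61 alternative values lay within the limits set for the reported one. For *Sim1* and *Pou3f3* these limits were the count interval, which for *Sim1* was as wide as -5.26 to -0.86. For a median they were the medians of the members' lower and upper bounds, which is not an interval of the median. The count of 51 is thus a loose guide. With a mitochondrial limit of 5%, the NP1-like log2 ratio of Enl-T1 over Enl-WT moved from -2.78 to -0.69 for *Sim1* and turned from -1.13 to 1.11 for *Pou3f3*, on 7 and 1 UMIs for *Pou3f3*. The committed-like median of -1.01 became -0.60 with the length trend removed and -3.50 in male cells alone, of which Enl-T1 had 15. The nephron median of -2.36 became -1.96 with median-of-ratios size factors, -2.08 without technical genes in the total, -1.83 with the length trend removed, -1.92 at the 5% limit, -2.08 in female cells alone and -5.20 in male cells alone. The distal/loop-like medians kept their direction in all alternatives that gave a value, from -2.06 to -0.91 between Enl-T1 and Enl-WT and from 0.25 to 0.58 between TDI-11055 and untreated Enl-T1. Male cells alone gave no value for both, and the 5% limit none for the latter, because a library then had no UMIs of the genes it needs. No paired analysis was possible because each group is 1 library, and no replicate could be left out. Counts of members past 2-fold, an alternative set added after seeing the data, moved as follows. Of 9 committed-like members 5 were lower in Enl-T1, beside 9.44% of all genes. The count was 2 with median-of-ratios size factors (beside 4.48%), with the length trend removed (3.36%) or in female cells alone (10.7%). It was 3 without technical genes in the total (5.67%) or at the 5% limit (14.8%). With TDI-11055, 2 distal/loop-like members were higher, beside 8.64% of all genes. The count was 1 without technical genes (beside 7.58%), with the length trend removed (7.8%) or without the barcodes of highest doublet score (8.88%). It was also 1 with 1 CPM added and no filter (5.76%). The distal/loop-like count of 6 lower in Enl-T1 ran from 5 to 6, beside 9.82% to 27.2% of all genes. Its members changed, and in female cells alone *Irx3* stood in the place of *Tfap2b*. The nephron count of 9 ran from 8 to 10, beside 6.99% to 22.9% of all genes. Between 1 and 13 UMIs stood behind *Irx1*, *Irx2*, *Irx3*, *Sim2* and *Umod* in Enl-T1 distal/loop-like cells, which limits their precision. The causes of these shifts were not tested.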
